A study of Mus musculus with 4 samples.

Results

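The genes described here are 9 megakaryocyte and platelet genes of the mouse: Itga2b, Pf4, Treml1, Pear1, P2rx1, Nrgn, Gp1bb, Gp9 and Pdgfb. They were picked by name out of the 17393 genes of the deposited table, with the difference between knockout and wild-type cells already known, so their own knockout-minus-wild-type values are given as a description and without a test. RNA came from DS19 mouse erythroleukemia (MEL) cells, a transformed line of red cell precursors. There were 2 libraries of Wdr26-/- cells and 2 of wild-type cells. Wdr26 encodes a subunit of an E3 ubiquitin ligase complex. All 4 libraries share the cell line and the ribosomal RNA depletion, and the growth notes, which are the same for both genotypes, mention 1.5% dimethyl sulfoxide as inducer of differentiation without saying whether the sequenced cells had received it. The labels do not say whether the knockout cells were a single clone or how the libraries of a genotype were replicated, so the spread between libraries may be technical.

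Megakaryocytes arise from a precursor that they share with red cells, and both lineages use the transcription factors GATA1, FOG1 and TAL1. Platelets, which megakaryocytes shed, carry receptors for collagen, von Willebrand factor, fibrinogen, ADP, ATP and thrombin, and store chemokines and growth factors in granules. The ETS factor FLI1 and the Runt-domain factor RUNX1 are known to act on many of these genes beside GATA1.

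Expression was measured as FPKM (fragments normalised for transcript length and library depth), which sets genes of different length on a common scale. The steps in the lowest values of single-transcript genes corresponded to an estimated depth of 20500000 to 21000000 fragments per library. Gp1bb was the least certain of the members with a fragment estimate. It had about 37 and 10 fragments in the knockout libraries and about 21 and 7 in the wild-type libraries. Wdr26 itself, the check of the genotype, stood at 9.0 and 7.84 FPKM in knockout and at 55.39 and 52.41 FPKM in wild type. Erythroid identity was seen in every library, with all 10 erythroid markers above the filter. The summed FPKM of these markers was 152200 and 178300 in knockout and 167400 and 206600 in wild type, and most of it was the globin gene Hba-a1, at 122154 and 145241 FPKM in knockout and 135652 and 168691 FPKM in wild type. Of 10 defining megakaryocyte markers other than the members, 8 were in the table, and 5 of these stayed below 1 FPKM in all 4 libraries. They include Gp6 (the collagen receptor, listed at 0 throughout), Itgb3, Ppbp and Tubb1. The summed FPKM of the 8 markers was 12.22 and 11.84 in knockout and 8.12 and 8.74 in wild type. The name of the gene group thus refers to the cells in which these genes are best known, since most of the other defining megakaryocyte markers were low in this erythroid line.

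The promoters of 5 members are shown as examples that hold letters known for GATA or ETS factors at different places. They are RefSeq sequences of GRCm38.p6, each from 250 bases before an annotated start to 50 bases from it, written 5′ to 3′ on the strand of the gene. For Gp9, Pear1 and P2rx1 the start used lies inside the annotated gene and not at its first base. Capitals mark matches on either strand. The GATA letters searched were AGATAA, its form ending in G (written AGATAG), the form starting with T (written TGATAA) and the form with both (written TGATAG). The ETS letters were CGGAAG and the form starting with A (written AGGAAG), and the RUNX letters were TGTGGT and the form with a central C (written TGCGGT). No matches overlapped each other in the promoters shown.
Itga2b (chr11:102469834-102470133, strand -): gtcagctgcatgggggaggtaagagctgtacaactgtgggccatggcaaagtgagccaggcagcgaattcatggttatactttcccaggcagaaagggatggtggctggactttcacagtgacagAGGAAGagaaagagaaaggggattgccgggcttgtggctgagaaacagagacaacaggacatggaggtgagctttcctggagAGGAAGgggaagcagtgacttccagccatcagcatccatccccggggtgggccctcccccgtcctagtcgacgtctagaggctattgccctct
Pf4 (chr5:90772185-90772484, strand +): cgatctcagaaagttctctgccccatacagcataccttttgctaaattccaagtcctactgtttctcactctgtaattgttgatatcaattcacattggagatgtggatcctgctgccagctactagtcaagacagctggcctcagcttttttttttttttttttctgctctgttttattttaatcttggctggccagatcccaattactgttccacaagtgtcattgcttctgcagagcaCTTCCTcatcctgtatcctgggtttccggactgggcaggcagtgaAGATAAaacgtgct
Gp9 (chr6:87777820-87778119, strand +): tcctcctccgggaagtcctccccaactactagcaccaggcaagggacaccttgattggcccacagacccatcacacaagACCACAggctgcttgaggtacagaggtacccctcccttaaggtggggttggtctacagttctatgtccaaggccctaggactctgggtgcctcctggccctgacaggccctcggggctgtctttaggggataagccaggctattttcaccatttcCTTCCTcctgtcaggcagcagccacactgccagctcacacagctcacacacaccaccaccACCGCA
Pear1 (chr3:87768904-87769203, strand -): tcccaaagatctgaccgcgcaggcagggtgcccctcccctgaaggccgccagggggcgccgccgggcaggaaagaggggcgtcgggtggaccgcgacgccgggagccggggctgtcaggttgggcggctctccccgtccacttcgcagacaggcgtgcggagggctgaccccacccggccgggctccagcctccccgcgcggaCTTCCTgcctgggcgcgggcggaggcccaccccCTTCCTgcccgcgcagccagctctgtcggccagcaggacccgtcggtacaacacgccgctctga
P2rx1 (chr11:72998895-72999194, strand +): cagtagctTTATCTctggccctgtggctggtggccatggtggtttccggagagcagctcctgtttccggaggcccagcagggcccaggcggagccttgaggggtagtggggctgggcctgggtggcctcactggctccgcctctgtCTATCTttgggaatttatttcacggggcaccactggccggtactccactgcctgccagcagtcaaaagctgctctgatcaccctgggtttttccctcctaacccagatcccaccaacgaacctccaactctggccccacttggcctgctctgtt
Counted from the start used as 0, ETS letters began at −125 and −43 in Itga2b, at −9 in Pf4, at −16 in Gp9 and at −47 and −14 in Pear1. GATA letters began at 36 in Pf4 and at −242 and −104 in P2rx1. The promoter of Gp1bb, which is not shown, held GATA letters at −22 and ETS letters at −90 and 20. Of the 8 members with a promoter sequence (all but Pdgfb), 5 held ETS letters, against 46.5% of all 32851 mouse promoters of the same length. GATA letters were found in 3 of the 8, against 29.8% of all promoters, and RUNX letters in 1 of the 8, against 22.4%. The Pear1 promoter differed in composition from the others, with a GC content of 75.0% and 33 CpG dinucleotides, where the medians over all promoters were 52.7% and 7. These matches describe the letters in the window and do not show binding.

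The members spanned a wide range of levels. Itga2b encodes integrin αIIb (CD41), which pairs with the β3 chain as the fibrinogen receptor of platelets and also marks early blood progenitors, and it was by far the most abundant member. In knockout, the order of mean FPKM was Itga2b, Nrgn, Pf4, P2rx1, Pear1, Gp9, Pdgfb, Treml1 and Gp1bb. Neighbouring members overlapped between libraries from Nrgn down to Pear1, and the others lay apart. In wild type the order was Itga2b, Pf4, Nrgn, P2rx1, Gp9, Pear1, Pdgfb, Treml1 and Gp1bb. There Pf4 and Nrgn overlapped, as did P2rx1 and Gp9, and Pdgfb, Treml1 and Gp1bb each overlapped the next. Pear1 thus stood above Gp9 in both knockout libraries and below it in both wild-type libraries.

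**Figure D1:**
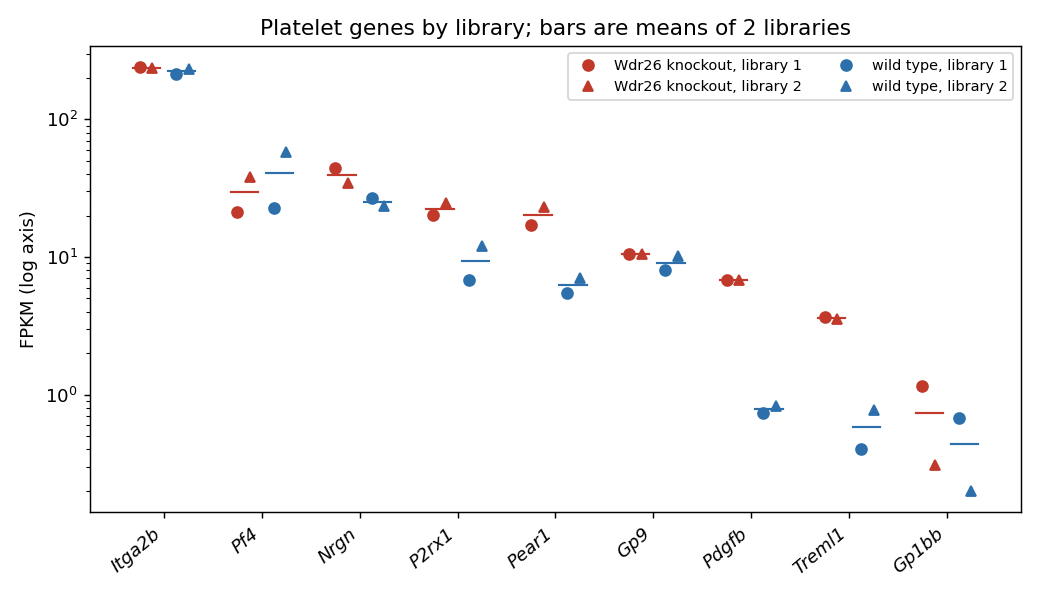
FPKM of the 9 members in each library on a log axis, with circles for library 1, triangles for library 2, red for Wdr26 knockout, blue for wild type and bars for the mean of 2 libraries. Pdgfb, Treml1, Pear1 and P2rx1 show wide gaps between genotypes, while Itga2b, Gp9, Pf4 and Gp1bb lie close or overlap.

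Among the adhesion receptors, Itga2b had 239.95 and 235.26 FPKM in knockout and 215.4 and 232.49 FPKM in wild type. Both knockout values were above both wild-type values, by little, and the log2 change was 0.09 (SE 0.13). Of the 15 transcripts behind its value 14 carry no RefSeq name, as do 3 of 4 for Gp9, 1 of 2 for Pf4 and 1 of 5 for Treml1. Gp9, the glycoprotein IX subunit of the von Willebrand factor receptor, had 10.52 and 10.47 FPKM in knockout and 8.05 and 10.12 FPKM in wild type, a log2 change of 0.20 (SE 0.16). It was 0.05 without wild-type library 1 and 0.35 when wild-type library 2 was omitted, and that of Itga2b was 0.03 and 0.14 in the same fits. For both genes the groups overlapped once each library was centred on the median of all genes. Gp1bb, the glycoprotein Ibβ subunit of the same receptor, had 1.16 and 0.31 FPKM in knockout and 0.67 and 0.2 FPKM in wild type. Its groups overlapped, and it was the member that failed the filter of at least 1 FPKM in at least 2 libraries. Gp1bb also overlaps Septin5 in the RefSeq annotation, and Septin5 had 23.15 and 28.76 FPKM in knockout and 17.65 and 20.34 FPKM in wild type. The overlap was not resolved here, so fragments of Septin5 in Gp1bb, or the reverse, cannot be told apart.

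Pear1 encodes a receptor of the EGF-repeat family that is phosphorylated when platelets touch each other. It had 17.15 and 23.19 FPKM in knockout and 5.45 and 6.98 FPKM in wild type. The lower knockout library was well above the higher wild-type library, and the mean was 3.25-fold that of wild type (20.2 ± 4.27 and 6.21 ± 1.08 FPKM, SD, n = 2 each). The log2 change on the log2(FPKM + 1) scale was 1.55 (SE 0.20).

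Treml1 encodes TLT-1, a receptor stored in α-granules and brought to the surface of activated platelets. Its values were 3.66 and 3.55 FPKM in knockout and 0.4 and 0.77 FPKM in wild type. The knockout libraries were close to each other and far above both wild-type libraries, at a ratio of means of 6.16. Both wild-type values lay below 1 FPKM, so the ratio rests on a low denominator. No fragment number was estimated for Treml1. The log2 change was 1.55 (SE 0.19), and 2.49 with a pseudocount of 0.1 in place of 1. Treml1 passed the filter through its knockout values alone, as did Pdgfb.

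P2rx1 encodes the ATP-gated cation channel P2X1, through which platelets take up calcium. It had 20.08 and 24.89 FPKM in knockout and 6.77 and 12.03 FPKM in wild type. The wild-type libraries differed more from each other than the knockout libraries did, yet the groups lay apart, with a ratio of means of 2.39 and a log2 change of 1.22 (SE 0.26). The estimated fragments behind these values were about 1023 and 1238 in knockout and 343 and 620 in wild type.

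Nrgn encodes neurogranin, a calmodulin-binding protein best known from neurons whose RNA is also known from human platelets. It had 44.53 and 34.34 FPKM in knockout and 27.03 and 23.38 FPKM in wild type. Both knockout values were above both wild-type values, and the log2 change was 0.62 (SE 0.17).

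The secreted members differed from each other. Pf4, the α-granule chemokine platelet factor 4, had 21.35 and 37.86 FPKM in knockout and 22.8 and 58.22 FPKM in wild type. The groups overlapped, and the spread within each genotype was larger than the difference between them, with a log2 change of −0.35 (SE 0.46). Its direction turned when a single library was left out, to 0.31 without wild-type library 2 and 0.05 with knockout library 1 omitted. It was −1.01 when wild-type library 1 was omitted and −0.75 when knockout library 2 was. Pdgfb encodes a subunit of the mitogen PDGF, which megakaryocytes and endothelial cells make. It had 6.79 FPKM in both knockout libraries and 0.74 and 0.83 FPKM in wild type. These values rest on about 411 and 401 fragments in knockout and about 45 and 51 in wild type. The ratio of means was 8.65, the highest among the members, and the log2 change was 2.13 (SE 0.15), or 2.96 with a pseudocount of 0.1.

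Both knockout libraries lay above both wild-type libraries for 7 of the 8 members that passed the filter, where 29.9% of the 10670 genes of the whole table that passed it did so, and for 5 of the 8 after median-centring, where 19.9% did. Because the members were chosen on this contrast, these counts are fixed in part by the choice and nothing is read from them. In RNA of a whole culture, more cells that express a gene and more RNA of it per cell cannot be told apart.

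The libraries of a genotype also differed from each other in a way that the genotype does not account for. Pf4, Pear1 and P2rx1 had more FPKM in library 2 than in library 1 whichever the genotype, a pattern of 24.0% of all genes tested. Nrgn and Gp1bb had less FPKM in library 2 in each genotype, a pattern of 46.5%. The ratio of library 2 to library 1 for Pf4 was 1.77 in knockout and 2.55 in wild type, and for Gp1bb it was 0.267 in knockout and 0.299 in wild type. For Treml1 it was 0.97 in knockout and 1.93 in wild type. For Pf4 and Gp1bb these differences exceeded that between the genotype means, and Pdgfb had ratios of 1.0 in knockout and 1.12 in wild type.

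**Figure D2:**
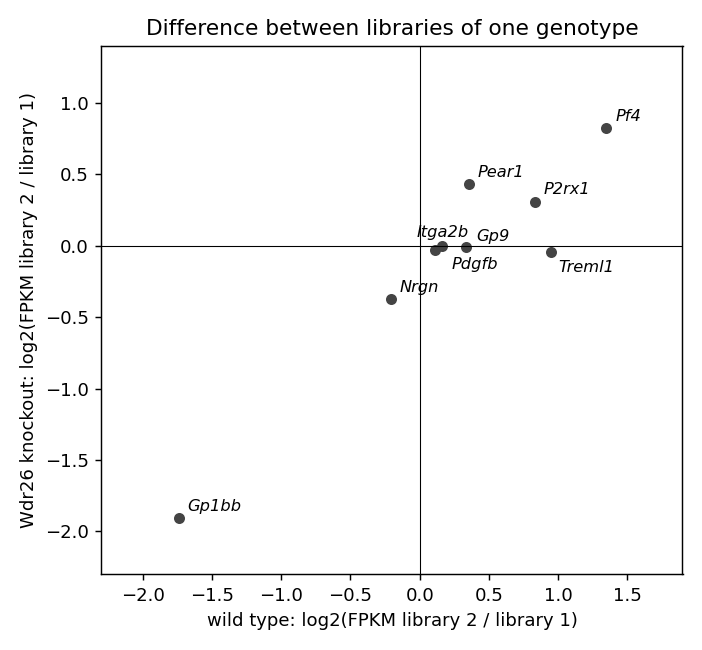
Log2 ratio of FPKM in library 2 to library 1 for each member, in knockout on the vertical axis and in wild type on the horizontal axis, with 1 point per gene. Pf4 at the upper right and Gp1bb at the lower left show the widest differences between libraries, in the same direction in both genotypes.

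Platelet biology involves many more genes, and 123 of them other than the members were listed by role. The table held 115, of which 78 passed the filter on low values. None of the 78 passed an adjusted p of 0.05 in limma, where 0.0937% of all genes passed in either direction. At an unadjusted p under 0.05, 25 were higher and 2 lower in knockout, which is to be read against 9.02% and 2.40% of all genes tested. Both knockout libraries were above both wild-type libraries for 44 genes and below them for 8, and 26 overlapped. Among all genes 29.9% were above and 10.8% below. After median-centring 30 were above and 10 below, where all genes gave 19.9% and 20.1%. The median log2 change of the 78 was 0.24, and that of all genes tested was 0.07. The count that passed an adjusted p of 0.05 rested on which libraries were in the fit. Leaving out knockout library 1 gave 19, with 738 among all genes in that fit, and leaving out knockout library 2 gave 11, with 328 among all genes, against 10 among all genes with every library in. In both smaller fits the lone knockout library is assumed to vary like the wild-type ones. Leaving out either wild-type library gave 0, with 3 among all genes without library 1 and 5 without library 2.

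**Figure D3:**
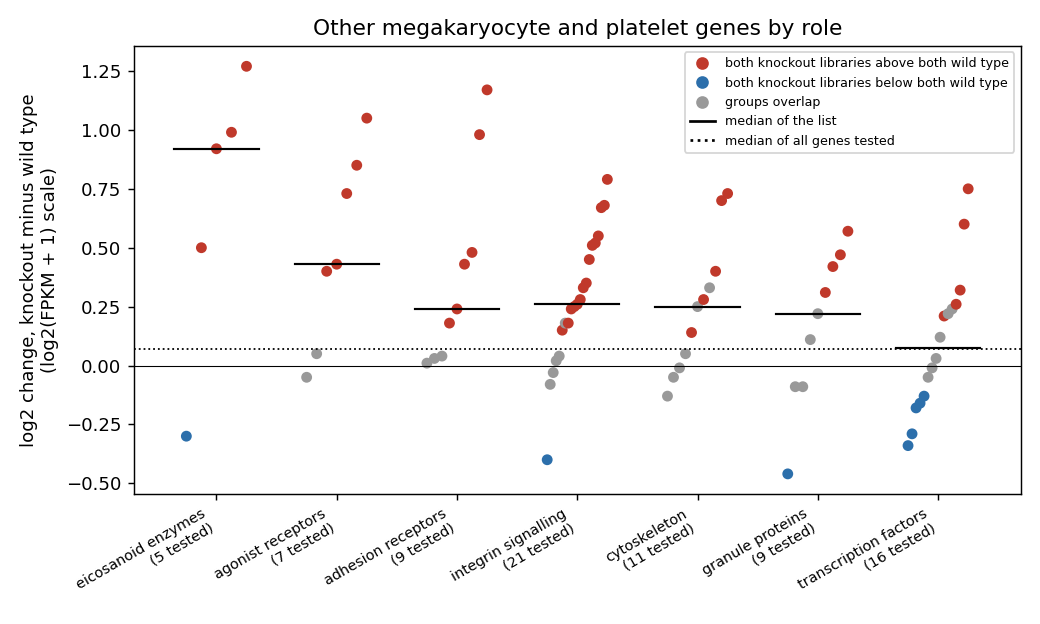
Log2 change of each tested gene (knockout minus wild type, log2(FPKM + 1) scale) in 7 lists of other megakaryocyte and platelet genes, coloured by whether both knockout libraries lay above or below both wild-type libraries. Solid bars are list medians and the dotted line is the median of all genes tested, 0.07, and the eicosanoid enzymes have the highest list median, 0.92 over 5 genes.

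The receptor for von Willebrand factor has the further subunits Gp1ba and Gp5 beside Gp9 and Gp1bb. Gp5 (glycoprotein V) had 3.59 and 4.2 FPKM in knockout and 1.17 and 1.18 FPKM in wild type, and the genotypes differed by 1.17 on the log2 scale (SE 0.16, limma adjusted p = 0.101). Gp1ba, which carries the ligand-binding site, had 5.94 and 5.07 FPKM in knockout and 3.9 and 3.73 FPKM in wild type (log2 change 0.43, limma adjusted p = 0.382). Of the 4 subunits, Gp5, Gp1ba and Gp9 passed the filter and stood above both wild-type libraries in both knockout libraries, Gp9 only without median-centring. Gp1bb did not pass the filter. The integrin partner of Itga2b, Itgb3, had 0.51 and 0.38 FPKM in knockout and 0.28 and 0.44 FPKM in wild type, far below Itga2b in every library. Of 9 adhesion receptors tested, 6 were above and 0 below wild type in both knockout libraries, where all genes gave 29.9% and 10.8%. After median-centring 2 were above and 0 below, where all genes gave 19.9% and 20.1%, and the 2 that stayed above were Gp5 and Gp1ba. The others that were above before centring include Slamf1, a homophilic receptor of the SLAM family, at 7.3 and 16.61 FPKM in knockout and 3.93 and 6.66 FPKM in wild type, and F11r, the junctional adhesion molecule A, at 19.11 and 30.29 FPKM in knockout and 15.17 and 19.0 FPKM in wild type. Slamf1, F11r, Cd9 and Cd84 overlapped after median-centring.

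Receptors for soluble agonists were above wild type in both knockout libraries for 5 of the 7 tested and below for 0, against 29.9% and 10.8% of all genes. After median-centring 4 were above and 1, P2ry1, below, against 19.9% and 20.1%. Ptger3, a prostaglandin E2 receptor, had 7.75 and 6.83 FPKM in knockout and 4.01 and 2.21 FPKM in wild type (log2 change 1.05, SE 0.24, limma adjusted p = 0.216). Ptgir, the prostacyclin receptor that restrains platelets, had 8.26 and 8.81 FPKM in knockout and 4.29 and 4.3 FPKM in wild type (log2 change 0.85, SE 0.14, limma adjusted p = 0.14). Adra2a, the α2A adrenergic receptor, had 17.1 and 17.14 FPKM in knockout and 9.93 FPKM in both wild-type libraries (log2 change 0.73, SE 0.13, limma adjusted p = 0.152). The libraries of a genotype were close for Ptgir and Adra2a but not for Ptger3 in wild type, the groups lay apart for each of the 3 genes, and none passed the test. F2r, which encodes a thrombin receptor, had 13.34 and 21.61 FPKM in knockout and 11.49 and 13.27 FPKM in wild type, and its groups overlapped after median-centring. The further thrombin receptor genes listed, F2rl2 and F2rl3, stayed below 1 FPKM in every library. F2rl3 had 0.11 and 0.06 FPKM in knockout and 0.17 and 0.08 FPKM in wild type.

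Enzymes that turn arachidonic acid into thromboxane and related lipids had a median log2 change of 0.92 over 5 tested genes, with 4 above and 1 below wild type in both knockout libraries, also after median-centring. All genes gave 29.9% and 10.8%, and 19.9% and 20.1% after centring. Ptgs1, the cyclooxygenase of platelets, had 7.81 and 11.44 FPKM in knockout and 2.72 and 4.1 FPKM in wild type (log2 change 1.27, SE 0.24, limma adjusted p = 0.164). Tbxas1, thromboxane synthase, had 39.78 and 50.79 FPKM in knockout and 18.26 and 29.73 FPKM in wild type (log2 change 0.92, SE 0.25, limma adjusted p = 0.27). Alox5ap, the activator of 5-lipoxygenase, had 54.05 and 72.32 FPKM in knockout and 28.71 and 33.27 FPKM in wild type (log2 change 0.99, SE 0.18, limma adjusted p = 0.153). Pla2g4a, the phospholipase that releases arachidonic acid, had 4.19 and 3.88 FPKM in knockout and 3.39 and 1.9 FPKM in wild type. The gene below wild type was Ptges3, which also encodes the Hsp90 co-chaperone p23, at 43.97 and 38.26 FPKM in knockout and 54.52 and 47.46 FPKM in wild type. Alox12, the other listed enzyme gene, failed the filter and stood at 0.02 FPKM in every library. Tbxas1 and Alox5ap are also expressed by myeloid cells. Of 10 myeloid and mast cell markers 7 were in the table and 6 stayed below 1 FPKM in all libraries, with sums over the 7 of 3.06 and 2.3 FPKM in knockout and 2.72 and 1.65 FPKM in wild type. The exception was Cd68, at 2.25 and 1.88 FPKM in knockout and 1.74 and 1.11 FPKM in wild type.

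Genes of integrin activation and receptor signalling were above wild type in both knockout libraries for 15 of 21 tested and below for 1, where all genes gave 29.9% and 10.8%, with a median log2 change of 0.26. After median-centring 10 were above and 1 below, where all genes gave 19.9% and 20.1%. The most abundant was Fermt3, kindlin-3, which is needed to activate platelet integrins. It had 285.37 and 283.36 FPKM in knockout and 157.85 and 170.61 FPKM in wild type (log2 change 0.79, SE 0.13, limma adjusted p = 0.141). Plcg2, the phospholipase Cγ2 downstream of the collagen receptor, had 14.57 and 14.56 FPKM in knockout and 8.8 and 8.65 FPKM in wild type (log2 change 0.68, limma adjusted p = 0.166). Rasgrp2, an exchange factor for the GTPase Rap1, had 7.81 and 10.71 FPKM in knockout and 5.01 and 5.81 FPKM in wild type. Dok2, an adaptor of tyrosine kinase signalling, had 17.12 and 18.74 FPKM in knockout and 10.68 and 13.34 FPKM in wild type. The gene that was below wild type in both knockout libraries was Rap1b, at 77.41 and 80.53 FPKM in knockout and 95.45 and 114.45 FPKM in wild type.

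**Figure D4:**
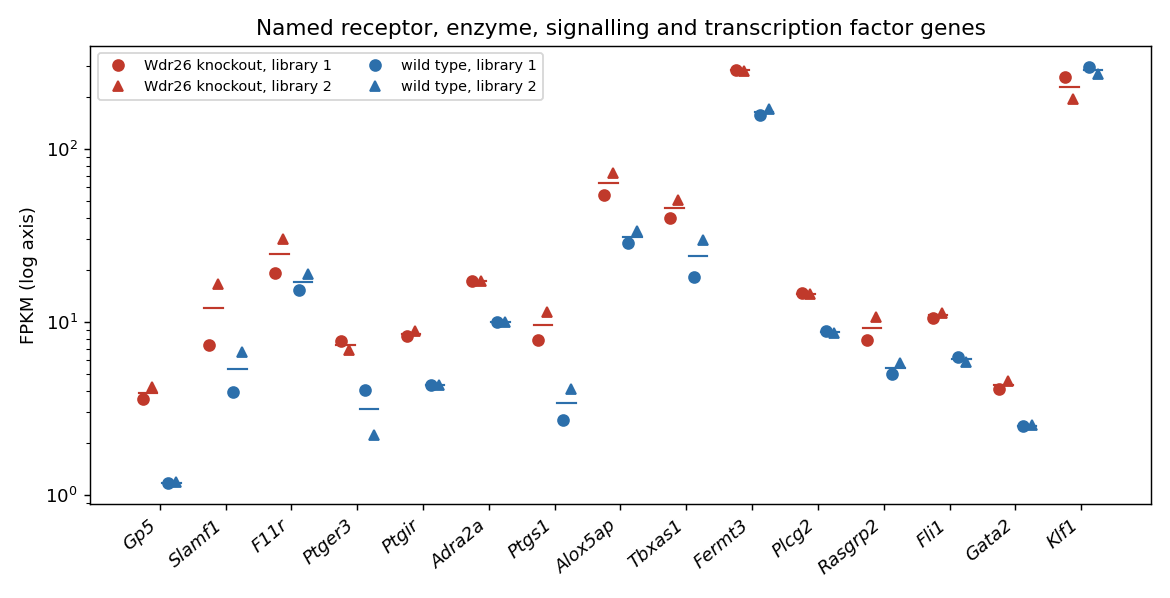
FPKM per library on a log axis for the 3 genes with the widest log2 change and groups apart in each of 5 role lists, with circles for library 1, triangles for library 2, red for knockout, blue for wild type and bars for the mean of 2 libraries. Klf1 is the single gene shown that lies below wild type in both knockout libraries, and the other 14 lie above.

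Of 9 granule genes tested, 4 were above and 1 below wild type in both knockout libraries, and 3 were above and 2 below after median-centring. The shares of all genes were 29.9% and 10.8%, and 19.9% and 20.1% after centring. Tgfb1, which encodes the growth factor that platelets store in quantity, had 174.05 and 183.7 FPKM in knockout and 103.86 and 138.88 FPKM in wild type. Srgn, the granule proteoglycan serglycin, had 49.75 and 51.83 FPKM in knockout and 36.91 and 38.64 FPKM in wild type. Nbeal2, needed to form α-granules, had 5.41 and 4.07 FPKM in knockout and 3.17 and 3.08 FPKM in wild type. Vwf, von Willebrand factor, ran the other way, at 2.08 and 1.48 FPKM in knockout and 2.67 and 2.96 FPKM in wild type (log2 change −0.46, limma adjusted p = 0.414). In the chemokine cluster on chromosome 5, Ppbp lies 2372 bases from Pf4 and was listed at 0 and 0.09 FPKM in knockout and at 0 in both wild-type libraries, so the neighbours differed widely in level.

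Cytoskeletal genes of platelet formation were above wild type in both knockout libraries for 5 of 11 tested and below for 0, against 29.9% and 10.8% of all genes. After median-centring this was 3 and 0, against 19.9% and 20.1%. Diaph1, a formin that acts on actin and microtubules, had 27.22 and 30.89 FPKM in knockout and 16.67 and 18.27 FPKM in wild type. Myh9, the non-muscle myosin heavy chain of platelets, had 58.32 and 55.24 FPKM in knockout and 41.59 and 43.88 FPKM in wild type. Zyx, the focal adhesion protein zyxin, had 45.62 and 69.44 FPKM in knockout and 27.26 and 41.18 FPKM in wild type, and Bin2, a membrane-bending protein, had 54.77 and 65.73 FPKM in knockout and 48.32 and 50.13 FPKM in wild type. Zyx and Bin2 overlapped after median-centring. Tubb1, the β1-tubulin of platelets, stayed below 1 FPKM in every library.

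Of 16 transcription factors tested, 5 were above and 5 below wild type in both knockout libraries, where all genes gave 29.9% and 10.8%. After median-centring 4 were above and 5 below, where all genes gave 19.9% and 20.1%. The median log2 change was 0.08, beside 0.07 for all genes. Fli1, an ETS factor of megakaryocytes that is also activated by Friend virus in erythroleukemia, had 10.49 and 11.29 FPKM in knockout and 6.28 and 5.87 FPKM in wild type (log2 change 0.75, SE 0.14, limma adjusted p = 0.158). Gata2, expressed in progenitors and megakaryocytes, had 4.11 and 4.52 FPKM in knockout and 2.49 and 2.53 FPKM in wild type (log2 change 0.60, limma adjusted p = 0.254). Etv6, another ETS factor, had 7.59 and 7.52 FPKM in knockout and 6.15 and 5.56 FPKM in wild type. Klf1, the erythroid factor that opposes Fli1, had 259.57 and 194.23 FPKM in knockout and 298.5 and 272.09 FPKM in wild type (log2 change −0.34, limma adjusted p = 0.562). The other factors below wild type in both knockout libraries, before and after median-centring, were Nfe2, Mafg, Mafk and Egr1. Nfe2 had 159.39 and 159.38 FPKM in knockout and 175.22 and 217.54 FPKM in wild type (log2 change −0.29, limma adjusted p = 0.567). None of these factors passed the test. Of the 10 erythroid markers tested, 0 were above and 6 below wild type in both knockout libraries, before and after median-centring. All genes gave 29.9% above and 10.8% below before centring, and 19.9% and 20.1% after. The median log2 change of the 10 markers was −0.34. The widest difference was that of Slc4a1, the anion exchanger, at 48.58 and 6.7 FPKM in knockout and 436.06 and 284.78 FPKM in wild type (log2 change −4.18, limma adjusted p = 0.166). Tfrc, the transferrin receptor, had 314.14 and 186.58 FPKM in knockout and 530.94 and 397.11 FPKM in wild type, and Epb42, a protein of the red cell membrane, had 17.72 and 7.13 FPKM in knockout and 29.89 and 18.36 FPKM in wild type. None of the 10 passed an adjusted p of 0.05 in limma, where 0.0937% of all genes passed in either direction. At an unadjusted p under 0.05 in limma, 0 were higher and 2 lower, against 9.02% and 2.40% of all genes tested. The part of these differences in the platelet gene values was not tested.

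The growth factor family of Pdgfb was otherwise near the lower limit. Pdgfa was listed at 0 and 0.05 FPKM in knockout and at 0 in wild type. The receptor genes Pdgfra and Pdgfrb stayed below 1 FPKM in every library, and Pdgfrb had 0.66 and 0.6 FPKM in knockout and 0.26 and 0.27 FPKM in wild type. Pdgfb and Pear1 are also expressed by endothelial cells. Of 8 endothelial markers 7 were in the table, 4 of these were listed at 0 in all libraries and 6 stayed below 1 FPKM. The exception was Egfl7, at 53.88 and 64.17 FPKM in knockout and 31.57 and 47.81 FPKM in wild type. Of the fibroblast markers in the table, both stayed below 1 FPKM in every library, as did all 7 lymphoid markers in the table.

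The members lie at separate places in the genome, Itga2b and P2rx1 on chromosome 11 and the others each on a different chromosome. The nearest or overlapping protein-coding neighbours that passed the filter were Fam171a2, Gpatch8, Nfya, Atp2a3, Camkk1, Spa17, Septin5, Rab43 and Cbx7. The others failed the filter or had no values. None of those tested passed an adjusted p of 0.05 in limma, where 0.0937% of all genes passed. Before centring, Fam171a2, Atp2a3, Rab43 and Septin5 lay above wild type in both knockout libraries, where 29.9% of all genes did. The other tested neighbours overlapped. Rab43, next to Gp9, had 24.58 and 25.2 FPKM in knockout and 22.24 and 22.21 FPKM in wild type. Next to Pdgfb (chromosome 15, 79995865 to 80024614), Cbx7 had 8.05 and 7.44 FPKM in knockout and 7.13 and 7.5 FPKM in wild type. Next to Treml1 (chromosome 17, 48359916 to 48367176), Nfya had 30.1 and 28.63 FPKM in knockout and 30.52 and 29.3 FPKM in wild type. Both neighbours overlapped between genotypes. Pear1 (chromosome 3, 87749097 to 87769110) lies 474 bases from Lrrc71, which had 0.19 and 0.28 FPKM in knockout and 0.13 and 0.11 FPKM in wild type. Vsig2, 288 bases from Nrgn, had 0.34 and 0.18 FPKM in knockout and 0.09 and 0.12 FPKM in wild type. Lrrc71 and Vsig2 failed the filter on low values and were not tested. P2rx1 (chromosome 11, 72999056 to 73015200) lies between Atp2a3 and Camkk1. Atp2a3, the SERCA3 calcium pump that platelets also use, had 229.63 and 333.92 FPKM in knockout and 151.21 and 225.06 FPKM in wild type (log2 change 0.58, limma adjusted p = 0.478). Camkk1, 843 bases away, had 4.16 and 3.66 FPKM in knockout and 3.81 and 2.99 FPKM in wild type. Itga2b (chromosome 11, 102453297 to 102469883) has Fam171a2 on one side, at 9.53 and 12.37 FPKM in knockout and 5.29 and 7.77 FPKM in wild type, and Gpatch8 on the other, at 19.36 and 20.27 FPKM in knockout and 19.73 and 19.85 FPKM in wild type.

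The genes whose 4 values followed the median pattern of the 8 tested members most closely were Arhgef10l, Septin1, Kif3c, Tmem151b and Fbxo2. Likeness was the root mean square distance between log2 deviations from the mean of each gene over 4 libraries, and it ran from 0.05 to 0.088. The median pattern stood at 0.48 and 0.49 in the knockout libraries and at −0.70 and −0.32 in the wild-type libraries. Arhgef10l had 3.86 and 3.84 FPKM in knockout and 1.25 and 1.68 FPKM in wild type. With 4 libraries many genes can follow such a pattern, and the likeness is a description.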

How the data were processed

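RNA-seq values of 4 libraries were used, grouped by the genotype in the labels. The deposited FPKM values, 1 per gene and library, were computed by the authors from RefSeq transcripts and from further transcripts without a RefSeq name, per the identifiers in the file. The file headers name no unit, and FPKM was inferred because, multiplied by transcript length, they summed to between 1.02e+09 and 1.04e+09 in each library. TopHat2 and mm10 are named in the submitters' processing notes. The counting program and the use of strand are not given in the sources used here. Depth was estimated as the fragment number and length loss (30 to 60 bases) that made low values nearest to whole fragments; 84.4% to 90.4% came within 0.2 of one.

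Values were converted to log2(FPKM + 1), a gene was kept where 2 or more libraries reached 1 FPKM, and knockout was compared with wild type in limma 3.58.1 (R 4.3.3) with a mean-variance trend and no covariates. P-values were adjusted by Benjamini-Hochberg over 10670 genes at a threshold of 0.05. An exact permutation test of 2 against 2 cannot give a p below 0.333, and none was run. The procedure was also run on simulated data with independent noise in each library. That setting lacks the likeness of same-numbered libraries seen here, so it does not vouch for these fits.

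Gene IDs (16316 of 17393) matched RefSeq of GRCm38.p6 (mm10), which gave coordinates, neighbours and promoters. Spreadsheet dates in 24 symbols were restored by gene ID. The members, the role and marker lists, and the rule for naming genes were chosen with earlier results of these data known. The rule named all members, per list up to 4 genes with groups apart by size of change, neighbours of members and the 5 genes most alike in pattern. Other genes were named after their values were seen, among them the list genes that ran against their list, the defining markers and members of the PDGF family. Tables were made with pandas 2.3.3 and figures with matplotlib 3.10.9.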

Additional observations from a re-analysis of the deposited data

How the results depend on the processing

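The settings tried were median-centred values, a pseudocount of 0.1, no filter on low values, no mean-variance trend, a block for library number, omission of each library in turn, and omission of 11 globin genes with totals rescaled. Under each of them the log2 changes of Treml1, Pear1, P2rx1, Nrgn and Pdgfb stayed positive, and Pf4 was the member whose sign turned. The changes of Itga2b and Gp9 stayed near zero or small, down to 0.01 for Itga2b after median-centring and 0.05 for Gp9 without wild-type library 1. Because the members were chosen on this contrast, these signs are a description. The count of all genes that passed was 10, against 0 without the filter and 21 without globin genes, and it ran from 3 to 738 with single libraries left out; the cause was not tested. The count of other megakaryocyte genes that passed ran from 0 to 19 with single libraries left out and was 0 in the remaining fits without a block. The library numbers are shared by both genotypes but the labels do not say that they pair the samples. Deviations of same-numbered libraries correlated at 0.61 across 10670 genes, which are not independent replicates. With the library number as a block, which leaves 1 residual degree of freedom, 1863 of 10670 genes passed, 1388 of them higher in knockout. Among the 78 other megakaryocyte genes 36 passed in that fit (32 higher and 4 lower). Among the members with a fragment estimate, depth limits Gp1bb most, whose values rest on 7 to 37 estimated fragments.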
